A study of Mus musculus with 2 samples.

Results

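The regulators of G protein signalling (RGS) described here are 10 mouse genes, Rgs1, Rgs2, Rgs3, Rgs9, Rgs10, Rgs11, Rgs14, Rgs16, Rgs18 and Rgs19, out of 30069 gene names measured on the arrays. They were taken by gene name, with all 19 of their gene probes among 39348. The genes were chosen with results of these arrays known, and Rgs9 was selected on its large difference between them, so the values below describe these genes and test nothing. The data are 2 single-colour Agilent arrays of total RNA from sorted regulatory T (Treg) cells, the CD4 T cells that restrain immune responses. The first array carries cells labelled Nr4a-deficient, from mice that the protocol calls Nr4a-TKO, and the second carries wild-type cells. Mice of both groups were 5 weeks old, their cells were lysed straight after the sort, and the labels name no other treatment. The Nr4a genes encode nuclear receptors that T cell receptor signals induce. The strain, the tissue, the sort gate, the deleted part of each Nr4a gene, any promoter or Cre behind the deletion, and how many animals gave each library are not given in the sources used here.

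RGS proteins shorten signals from G protein coupled receptors. Such a receptor loads the G protein alpha subunit with GTP, and the RGS domain speeds the hydrolysis of that GTP, which switches the signal off. In lymphocytes the best known inputs are chemokine and sphingosine 1-phosphate receptors that act through the inhibitory alpha subunits (Gi) and steer migration. The family has 4 main branches. The R4 branch (Rgs1, Rgs2, Rgs3, Rgs16 and Rgs18 here) holds mostly small proteins built around the RGS domain. The R7 branch (Rgs9 and Rgs11) works in complex with the beta subunit Gnb5. The R12 branch (Rgs10 and Rgs14) and the RZ branch (Rgs19) complete the set.

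Each group had 1 array, so there is no test and no p-value, and a count past 2-fold describes these 2 libraries. All 19 RGS probes were printed in 1 spot. The error given with a difference is the SD expected from spot noise alone, taken from probes printed in 10 spots at the same brightness. It leaves out differences between mice, sorts and RNA preparations. Differences are on the log2 scale, with wild-type subtracted from the library labelled Nr4a-deficient, once each array's 75th percentile (1762 and 2047 intensity units, respectively) had been taken off. Over 8 spike-in RNAs added in equal amount, that scale put the library labelled Nr4a-deficient 0.37 ± 0.058 higher (SD, n = 8), so on the spike-in scale every difference is 0.37 lower. The lowest signal called well above background was 51.1 in the library labelled Nr4a-deficient, against 73.8 in wild-type cells. In bulk RNA, fewer cells that express a gene and less RNA per cell cannot be told apart.

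The Nr4a1 and Nr4a2 probes did not bear out the label. The probe of Nr4a1 read 80407 in the library labelled Nr4a-deficient, against 51441 in wild-type cells, and the brightest Nr4a2 probe read 3134 and 1849.8. The Nr4a3 probe, printed in 10 spots, leaned the other way, at 22.3 units under the Nr4a-deficient label against 71.6 for wild-type (-1.47). Neither array showed Nr4a3 well above background, the wild-type signal being just under its limit of 73.8, so this difference was not counted as measured. Probes outside a deleted part check nothing, and the direction of every value below rests on the label. The T cell genes Cd3e, Cd4, Ctla4 and Ikzf2 (Helios) were well above background on both arrays, whereas the probe of Foxp3, the Treg lineage factor, read 74.5 and 85.4, close to the limit of detection. Bright signal was not confined to T cell genes. Cd4 read 44906 and 48090, while Siglech (136839 and 147869), Itgam (41673 and 38520) and Csf1r (23242 and 52389) were the brightest of 14 myeloid and dendritic cell markers. Which cells gave these signals was not tested. Il2ra, the CD25 chain by which Treg cells are often sorted, was lower by 2.42-fold where labelled Nr4a-deficient, the 1 of 10 T cell and Treg markers past 2-fold. The median of these 10 was 0.032, with 6 above 0, and their signals before scaling between arrays summed to 396085 and 498616 units.

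The probes that carry the largest differences are shown first. Each probe is 60 bases long and is given 5′ to 3′. Of the probes that may lie outside coding sequence the first 30 bases are printed. The first pair, for Rgs9, was designed on transcript variant 1 with starts 6 bases apart and shares 54 bases (the capitals mark the 24 shared bases of the printed stretch), so its probes do not count as separate evidence. The other Rgs9 probes lie 9.707 kb and 34.467 kb away. The array design gives the coordinates, on mm9, and no mm9 annotation was used here to place exons or untranslated regions.
Rgs9, chr11:109086675-109086734, minus strand: aggcatGTGGGCCAGAAGATATCCCTTGCT
Rgs9, chr11:109086669-109086728, minus strand: GTGGGCCAGAAGATATCCCTTGCTgcctta
Rgs9, chr11:109096382-109096441, minus strand: tatagactttgctatctcagcactcagggg
Rgs9, chr11:109121142-109121201, minus strand: caatgtgttagactacggcctggaccgcgt
Rgs18, chr1:146600137-146600196, minus strand: tgcttgaacgatgaagatggcatactttca
Rgs16, chr1:155592244-155592303, plus strand: gagagaactcttttaagtataatattgtgt
Rgs1, chr1:146091962-146092021, minus strand: cccttggataaccagtccaaaagtatatag

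The probes of Rgs2, Rgs3, Rgs6 and Rgs7 below read through the same piece of the RGS domain, so their bases can be set side by side. Capitals mark the 15 bases that encode a conserved motif near the end of the domain.
Rgs2, chr1:145848830-145848889, minus strand: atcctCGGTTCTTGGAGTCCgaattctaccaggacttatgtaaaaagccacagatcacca
Rgs3, chr4:62363208-62363267, plus strand: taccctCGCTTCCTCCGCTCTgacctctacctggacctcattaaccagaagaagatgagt
Rgs6, chr12:84234671-84234730, plus strand: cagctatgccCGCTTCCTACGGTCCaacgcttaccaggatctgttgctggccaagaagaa
Rgs7, chr1:177008321-177008380, minus strand: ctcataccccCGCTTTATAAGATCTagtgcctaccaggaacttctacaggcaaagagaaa
Of these 15 bases, Rgs3 and Rgs6 share 12, and Rgs2 and Rgs7 share 7. The probes of Rgs6 and Rgs7 shown here were not well above background on either array, at 21.0 and 32.7 units for Rgs6 and 12.1 and 38.0 for Rgs7, while those of Rgs2 and Rgs3 were well above it on both. Over the 19 probes of the 10 genes, the longest run of identical bases shared with a probe of another RGS gene was 7 to 12 bases, and GC content ran from 35% to 51.7%. Apart from the probes set side by side above, no probe was placed within its transcript, and none was compared with whole transcripts. Binding of a probe to the RNA of another RGS gene was therefore not tested.

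Among the 10 RGS genes, Rgs9 and Rgs16 passed 2-fold on the lower side in the library labelled Nr4a-deficient, Rgs18 passed it on the higher side, and the rest lay within 2-fold. Over all 18540 genes well above background on at least 1 array, 9.63% passed 2-fold by measured value or bound, 4.7% higher and 4.94% lower. Of the genes past 2-fold, 48.8% were higher, or 27.1% on the spike-in scale. Rgs9 was chosen for its difference, so the count of 3 in 10 is printed beside that share and nothing is read from it. The median of the 10 genes was -0.25, or -0.15 without Rgs9, against -0.0027 over all genes, and on the spike-in scale -0.62 against -0.37. The median size of the 10 differences, without regard to sign, was 0.35, against 0.20 over all genes. Differences lay below 0 in 8 of the 10 genes, and in 9332 of the 18540.

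**Figure D1:**
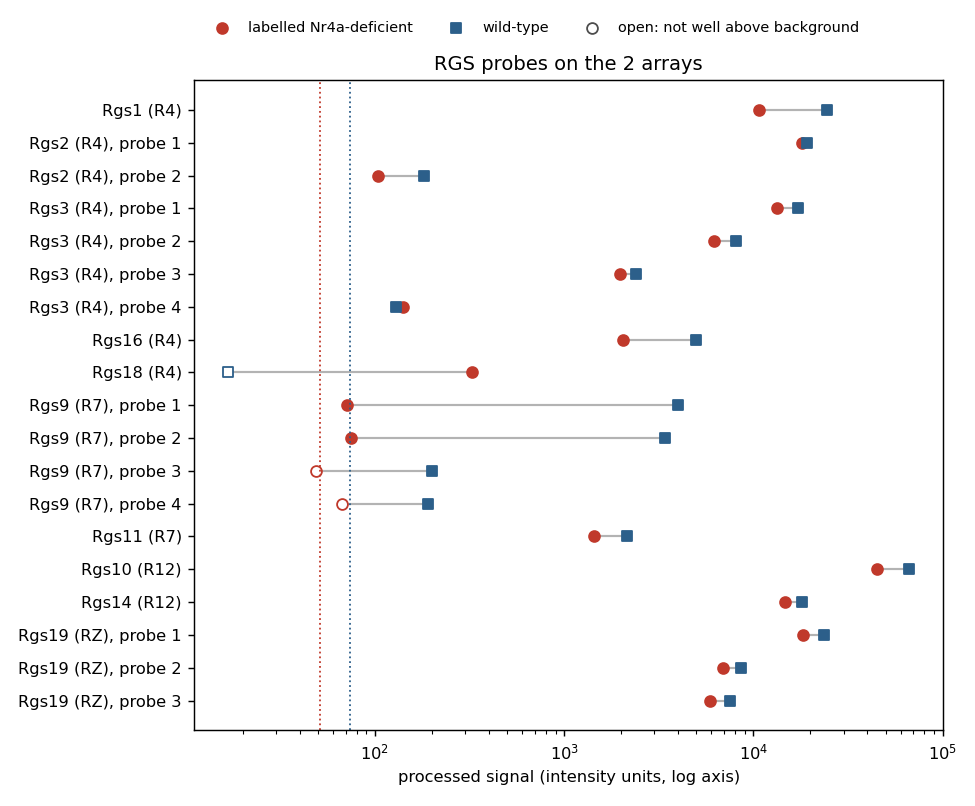
Processed signal of the 19 probes of the 10 RGS genes in intensity units (horizontal log axis), before scaling between arrays, with circles for the library labelled Nr4a-deficient and squares for wild-type. Open symbols were not well above background, the dotted lines mark the lowest signal with that call on each array, and probes of 1 gene are numbered from the brightest in the wild-type library. The Rgs9 and Rgs18 probes have the widest gaps, in opposite directions.

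Rgs9 had the lowest value of the family. Its protein ends the light response of photoreceptors in its short form and acts on dopamine and opioid receptor signals in the striatum in its long form. The brightest Rgs9 probe read 71.0 units in the library labelled Nr4a-deficient, against 3999 in wild-type cells. That is a log2 difference of -5.60 (spot noise SD 0.40), or 48.5-fold lower, the value on which the gene was picked. With normexp and quantile normalization it was -4.49, and with the mean of the Rgs9 probes -3.50, or 11.3-fold lower. That mean counts both probes of the overlapping pair. It also takes the measured values of probes that were well above background only in the wild-type library. The overlapping probe read 74.5 and 3394, a difference of -5.29 (spot noise SD 0.40). Both probes of the pair were high in the wild-type library and close to the limit of 51.1 in the other, where noise between spots is largest.

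The other Rgs9 probes lay lower as well in the library labelled Nr4a-deficient, by less. The probe designed on transcript variant 2 read 67.3 and 192 units and was at least 2.45-fold lower. The probe farthest from the pair, designed on an Ensembl transcript, read 48.6 and 201 and was at least 3.38-fold lower. Both values are bounds, since these probes were well above background only in the wild-type library. All 4 Rgs9 probes therefore pointed the same way, with 2 of the 4 measured on both arrays. Among 16298 genes measured on both arrays, Rgs9 had the second lowest difference (rank 2).

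With 2 arrays the likeness of another gene to Rgs9 is only the gap between the differences, and it says nothing of shared function. The 5 nearest named genes were Dnah7b, a dynein heavy chain gene (-5.48, gap 0.12), Apol9b, an apolipoprotein L gene with a close paralog (-4.79, gap 0.81), Penk, which encodes proenkephalin (-6.76, gap 1.16), Pdzk1ip1 (-3.97, gap 1.63) and Arhgap20 (-3.97, gap 1.63). Dnah7b alone lay within the spot noise SD of Rgs9 (0.40).

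The partners of R7 proteins were mostly too dim to read. Gnb5, the beta subunit that R7 proteins need for stability, read 159 and 344 units at its brightest probe, a difference of -0.90 (spot noise SD 0.21) or 1.87-fold lower. Its second probe read 89.8 and 120.1 and differed by -0.20, within its spot noise of 0.56. Gnb5 passed 2-fold with the median scale, cyclic loess (-1.03) and the spike-in scale (-1.28), and lay at -0.55 with the mean of its probes. Rgs7bp, Rgs9bp and Gpr158, which anchor R7 proteins at membranes, were not well above background on either array. Rgs11, the other R7 gene of the set and a partner of Gnb5 in retinal bipolar cells, read 1431 in the library labelled Nr4a-deficient, against 2136 in wild-type cells. It lay at -0.36 (spot noise SD 0.086) and within 2-fold.

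**Figure D2:**
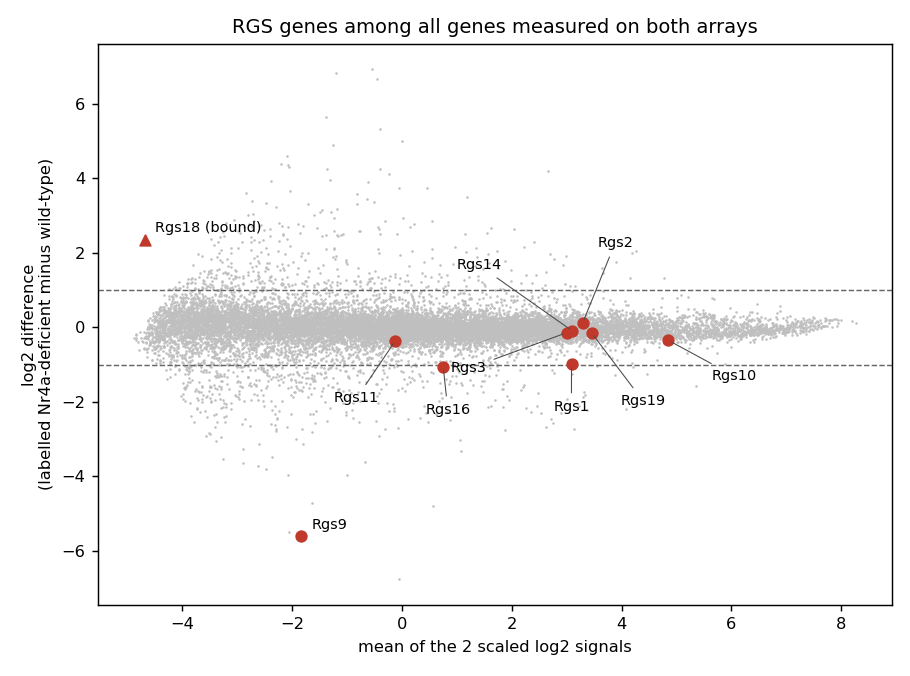
Log2 difference (vertical axis, wild-type subtracted from the library labelled Nr4a-deficient) against the mean of the scaled log2 signals (horizontal axis) for the 16298 genes that both arrays measured above background (grey points), with the 10 RGS genes in red. The dashed lines mark 2-fold, and the triangle is the bound of Rgs18, which was not well above background in the wild-type library. Rgs9 stands at -5.60, Rgs16 and Rgs1 lie near the lower 2-fold line, and 6 RGS genes sit between -0.37 and 0.37.

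Of the R4 genes, Rgs18 was higher and Rgs1 and Rgs16 were lower in the library labelled Nr4a-deficient. Rgs18, which restrains Gi and Gq signals and is best known from platelets, megakaryocytes and myeloid cells, read 325 units in that library. In the wild-type library it read 16.8, not well above background. It was therefore at least 5.10-fold higher, a log2 bound of 2.35, or 1.98 on the spike-in scale, and the measured signals differed by 4.49. With normexp and quantile normalization it was at least 2.92-fold higher, again a bound. Of 1597 genes that only the library labelled Nr4a-deficient showed well above background, 120 (7.51%) had a higher bound. All of these genes, Rgs18 included, entered through the library where they are high, so the rank is no separate support for a rise.

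Markers of cells that can carry Rgs18 differed between the same libraries. The platelet genes Pf4, Ppbp, Itga2b and Gp9 were not well above background on either array. The platelet genes Gp1bb and Treml1 lay at -0.0099 and -0.17. The 12 platelet and red cell markers summed, before scaling, to 54985 units in the library labelled Nr4a-deficient, against 199405 in wild-type cells. The haemoglobin gene Hba-a2 alone gave 41881.5 and 144751 of these units, so the sum says little of platelets. Of these 12, 5 were at least 2-fold lower and none was higher. The lower ones were the red cell genes Hbb-b2 (3.85-fold), Hba-a1 (3.52-fold), Alas2 (3.09-fold) and Hba-a2 (2.98-fold) and the platelet receptor gene Clec1b (8.67-fold). The 14 myeloid and dendritic cell markers summed to 237459 and 291553, of which Siglech alone gave 136839 and 147869. Among the 14 markers, 4 were at least 2-fold higher and 5 lower. The higher ones were Cd209a (at least 32.8-fold), Itgax (6.27-fold), Clec9a (5.63-fold) and Lyz2 (2.04-fold). The lower ones were the complement genes C1qc (3.03-fold), C1qa (2.92-fold) and C1qb (2.74-fold), Cd14 (2.57-fold) and Adgre1 (2.45-fold). The part of platelets, dendritic cells or other myeloid cells in the Rgs18 signal was not tested.

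Rgs16, which is induced in activated T cells and restrains their migration to chemokines, read 2051 in the library labelled Nr4a-deficient, against 5000.5 in wild-type cells. Its difference was -1.07 (spot noise SD 0.073), or 2.10-fold lower, and 2.74% of genes measured on both arrays lay lower still. With normexp background correction it was 1.99-fold lower, just short of the threshold. Rgs1, abundant in activated and tissue-resident lymphocytes and a brake on chemokine receptor signals, read 10655 and 24523. Its difference was -0.99 (spot noise SD 0.075), or 1.98-fold lower, just outside the threshold that Rgs16 just passed. On the spike-in scale Rgs1 was 2.56-fold and Rgs16 2.71-fold lower.

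Rgs2 and Rgs3 differed little. Rgs2 acts mainly on Gq, the alpha subunit that drives calcium release, and its bright probe (the coding probe shown above) read 18019.8 in the library labelled Nr4a-deficient, against 19239 in wild-type cells. That is a difference of 0.12 (spot noise SD 0.075), which turns to -0.25 on the spike-in scale and to -0.23 with the mean of its probes. Its second probe, designed on the same transcript, read 104 and 181, a difference of -0.58 with a spot noise SD of 0.42. The direction of Rgs2 is thus not settled by these arrays.

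Rgs3, whose gene makes long and short proteins acting on Gi and Gq, had 4 probes above background on both arrays. The brightest read 13397 and 17196 (difference -0.14), and the RGS domain probe shown above read 1972 and 2393 (-0.063, within its spot noise SD of 0.073). The probe designed on transcript variant 1 read 6201 and 8104 (-0.17), and the fourth, on an Ensembl transcript, read 141 and 129 (0.34, spot noise SD 0.21). The 3 brighter probes lay within 0.17 of 0, and no Rgs3 probe passed 2-fold. Which transcript forms each probe reads was not determined.

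The R12 and RZ genes lay close to 0. Rgs10, a small protein of immune cells and microglia that acts on Gi, read 45067 in the library labelled Nr4a-deficient, against 66437 in wild-type cells, a difference of -0.34 (spot noise SD 0.075). Rgs14, which also binds Rap GTPases and inactive Gi, read 14619.6 and 18039 (-0.087, spot noise SD 0.075). Rgs19, first found as a binding partner of a Gi subunit, read 18357 and 23694 at its brightest probe (-0.15, spot noise SD 0.075). Its other probes read 6870.4 and 8558 (-0.10) and 5908 and 7520.2 (-0.13), so all 3 Rgs19 probes pointed the same way. All of these differences are smaller than the spike-in shift of 0.37, and on the spike-in scale Rgs10 lay at -0.72, Rgs14 at -0.46 and Rgs19 at -0.52.

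**Figure D3:**
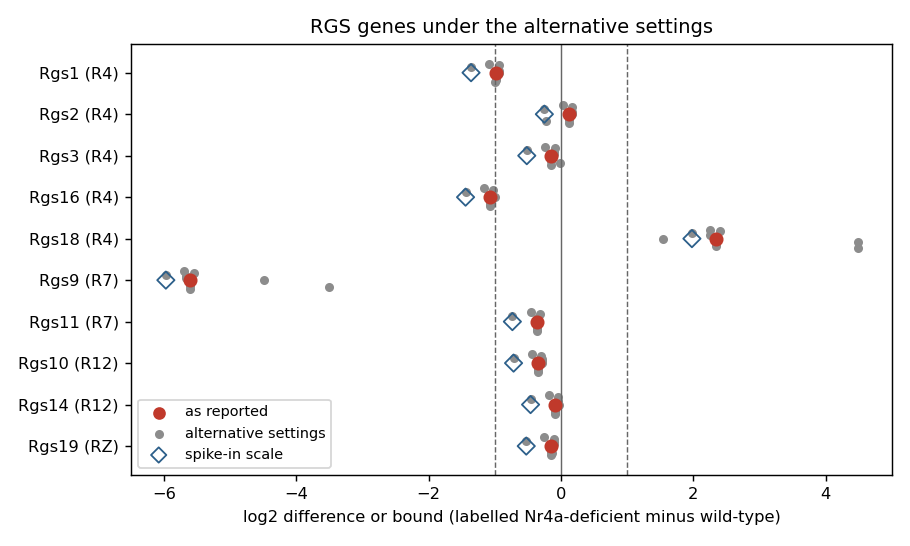
Log2 difference or bound of each RGS gene (horizontal axis, wild-type subtracted from the library labelled Nr4a-deficient) as reported (red), under the alternative settings (grey) and on the spike-in scale (diamonds), with dashed lines at 2-fold. Rgs9 stays between -5.97 and -3.50 and Rgs18 between 1.54 and 4.49, while the points of Rgs2 fall on both sides of 0.

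Position in the genome did not sort the genes by direction. Of the RGS genes, 5 have their probes within 753 kb of chromosome 1 on mm9, in the order Rgs2, Rgs13, Rgs1, Rgs21 and Rgs18. Within this stretch Rgs2 lay at 0.12, Rgs1 at -0.99 and Rgs18 at or above 2.35, and Rgs13 (a gene of germinal centre B cells) and Rgs21 were not well above background on either array. Neighbouring members 508 kb apart, Rgs1 and Rgs18, thus lay in opposite directions. Rgs16 lies 52.3 kb from Rgs8, which did not rise well above background on either array.

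Promoter sequences from RefSeq (GRCm38.p6, 250 bases before to 50 after each start) were at hand for 6 of the 10 genes, with 9 windows in all. Rgs1, Rgs11, Rgs14 and Rgs18 were not among them. The site that Nr4a receptors bind as monomers, AAAGGTCA, was searched on both strands. None of the 9 windows held it, nor the shorter AGGTCA that it contains, against 1.51% and 16.3% of 32851 windows of all genes. This says only that these letters are absent from these windows.

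The rest of the RGS family was mostly undetected. Of 12 other RGS genes, 9 were not well above background on either array (Rgs4, Rgs5, Rgs7, Rgs8, Rgs13, Rgs17, Rgs21, Rgs22 and Rgsl1). Rgs12, an R12 gene, lay at 0.15 and Rgs20, an RZ gene, at 0.21, and the brightest Rgs6 probe read 74.7 and 78.5, near the limit of detection on both arrays (0.14, within its spot noise SD of 0.56). These and all other differences between 0 and 0.37 turn below 0 on the spike-in scale. All 14 detected proteins with an RGS homology domain lay within 2-fold. They include Grk2 (0.17) and Grk6 (0.12), kinases that switch off active receptors, Axin1 (0.14), a scaffold of Wnt signalling, and Arhgef1 (0.067), an exchange factor that G12 and G13 activate. Among these 14, Arhgef12, another exchange factor of that kind, had the lowest value at -0.86.

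The G proteins on which RGS proteins act also differed little. Of 12 detected alpha subunits none passed 2-fold, with a median of -0.025, and Gnai2, the main Gi subunit of lymphocytes, read 81346 and 83603 (0.18, or below 0 on the spike-in scale). Gnaq lay at 0.44 and Gna13 at -0.34. Of 15 detected beta and gamma subunits only Gnb4 passed 2-fold, at 580.2 and 1506 units, or 2.23-fold lower. None of 10 other G protein modulators passed it, including Gpsm3 (0.25), Ric8a (0.055), Arrb1 (-0.077) and Arrb2 (0.15).

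Receptors upstream of Gi passed 2-fold in both directions. Of 21 detected receptors, 8 passed 2-fold on the higher side and 4 on the lower side. The share over all 18540 genes was 4.7% higher and 4.94% lower. The receptor list was chosen with earlier results of these data known, so its counts and sizes only describe it. Over all of these lists 8 genes were higher and 5 lower, which became 4 and 8 on the spike-in scale. Those higher included P2ry14 (4.26-fold) and Cxcr6 (3.74-fold), and the lowest were Ccr10 (7.49-fold), Ccr6 (6.70-fold) and Ccr8 (2.62-fold). The median size of a receptor difference was 1.15, against 0.17 over the 55 other detected genes of these lists and 0.20 over all genes. Of 10 detected B cell markers 2 passed 2-fold, both on the higher side, and the median was 0.83 (0.46 on the spike-in scale). All 12 B cell markers summed, before scaling, to 27184 and 17977 units. Of 9 detected NK and CD8 T cell markers 3 passed it, all on the higher side, and the median was 0.51 (0.14 on the spike-in scale). All 10 markers of that list summed to 29058 and 17655. Pax5 and Blk of B cells and Ncr1 of NK cells were not well above background on either array. The part of these cells in the receptor, Rgs1 and Rgs2 values was not tested.

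**Figure D4:**
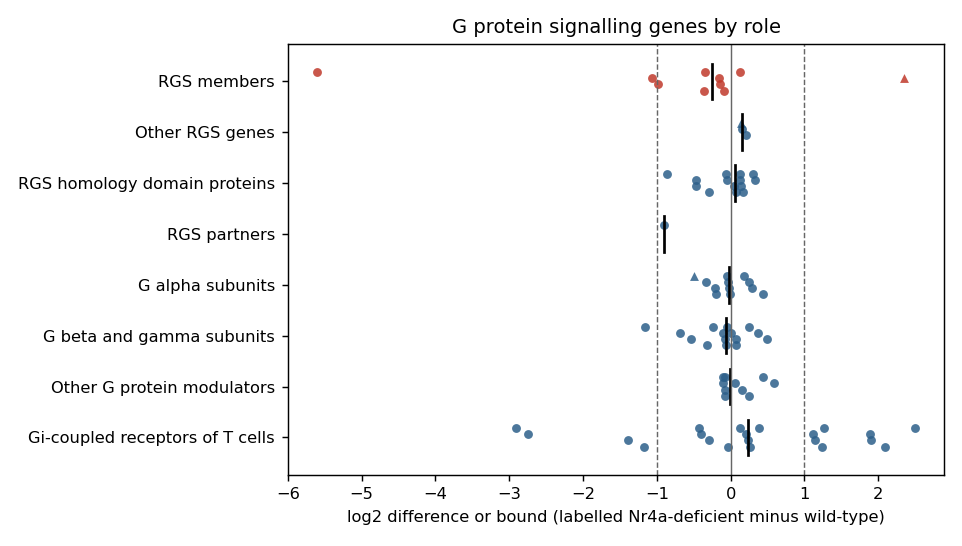
Log2 difference or bound (horizontal axis, wild-type subtracted from the library labelled Nr4a-deficient) of each detected gene, by role, with the RGS genes in red, bounds as triangles, medians as black bars and dashed lines at 2-fold. Receptors lie on both sides of the 2-fold lines, and apart from Gnb4 the G protein subunits and modulators lie within 2-fold.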

How the data were processed

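Per the file headers, the deposited intensity values come from the scanner software Agilent Feature Extraction (version 10.7.3.1), with background subtracted and each array detrended. No normalization between arrays is recorded. Both arrays lay on 1 slide. The authors' deposited value table also held intensities, with 99.7% of 39348 gene probes in each library within 1% of the scanner value. It was linear and not centred (medians 143.7 and 156.8) and was used as an alternative. Outlier spots were left out (173 and 209), no gene spot was saturated, and log2 processed signals were scaled to each array's 75th percentile. Probes well above background in over 50% of spots numbered 23113 and 21872. A gene was read from its brightest probe well above background on at least 1 array. Where 1 array fell short, the bound sets the bright value against the higher of the dim value and that array's lowest signal above background. Names were updated through RefSeq GRCm38.p6. Alternatives used limma 3.58.1 in R 4.3.3, and the steps were tested on simulated data. The named genes are all members, the Nr4a genes, up to 3 past 2-fold at each end of a list, and the 5 nearest to Rgs9. Further genes named were picked with their values in view. The members and lists were chosen with earlier results of these data known.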

Additional observations from a re-analysis of the deposited data

How the results depend on the processing

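The 12 alternatives covered scaling, background correction, the source of values, the filter on dim probes, the choice of probe, outlier spots and bounds. Using measured values in place of bounds does not bear on genes measured on both arrays. In the other 11 Rgs9 was at least 11.3-fold lower, the smallest fold being that of the mean of its probes. Rgs16 stayed past 2-fold in all but normexp with quantile normalization, where 1 RGS gene was lower. Rgs18 was at least 2.92-fold higher in the 11 that kept it. Rgs1 passed 2-fold with the median scale (-1.08) and the spike-in scale (-1.36). Rgs2 turned below 0 with the spike-in scale and the mean of probes. The median of the RGS genes was -0.34 with the median scale, -0.62 with the spike-in scale and -0.34 with both arrays above background, a filter that drops Rgs18 and leaves 0 RGS genes higher. The G protein lists had 4 genes higher and 8 lower with the spike-in scale, against 8 and 5. All genes gave 871 higher and 915 lower as reported, 560 and 1508 with the spike-in scale, 432 and 499 with both arrays above background, and 2059 and 1785 without a filter. With normexp 565 were higher, and with measured values in place of bounds 1429. Fewer genes enter with both arrays above background and more without a filter, and the cause of the other shifts was not tested. No paired analysis was possible because each group has 1 array, and no replicate could be left out. Signal over background limits Rgs9, whose probes sat near the floor in the library labelled Nr4a-deficient.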
